A study of Mus musculus with 9 samples.

Results

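The collagen genes of the mouse were followed in cultured cardiac fibroblasts that had been given more junctophilin-2, a hairpin against it, or a control virus. Members were all genes of the deposited table whose symbol is Col, a number, the letter a and a number; there were 44 among 56953 genes. They were divided by the assembly their protein forms into 11 fibrillar, 9 network, 9 fibril-associated, 6 beaded and 4 transmembrane chains, with 5 others that belong to none of these classes. The source was hearts of male C57BL/6N mice, adult and labelled wildtype in every sample, taken apart by perfusion with enzymes; cardiomyocytes had been left behind by settling. Each culture was infected with 1 adenovirus and harvested 72 h later. There were 3 polyA RNA sequencing libraries each of cells infected with Ad-JP2 (carrying JP2, the protein encoded by Jph2), Ad-shJP2 (carrying a hairpin against it) and Ad-GFP (the control virus). The title of the series places junctophilin-2 in calcium entry and fibrotic repair, so the comparisons ask whether collagen messages differ with it. The labels do not say whether the 3 libraries of a group were separate cultures, so p-values may measure technical spread only.

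Collagens are proteins of 3 chains wound into a triple helix. Fibrillar collagens, led by types I and III, form the load-bearing fibrils of the heart's interstitium and of infarct scars, and types V and XI sit inside fibrils and set their diameter. Network collagens form sheets: type IV is the scaffold of basement membranes, and type VIII forms open lattices. Fibril-associated collagens sit on the surface of fibrils, the beaded filaments of type VI link cells to the matrix, and transmembrane collagens stay in the plasma membrane. In the heart, fibroblasts are the main makers of fibrillar collagen.

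Depth recovered from the steps of low values was about 36.8 to 41.6 M reads in Ad-JP2, 21.2 to 33.2 M in Ad-shJP2 and 40.4 to 45.4 M in Ad-GFP libraries. Jph2, the targeted gene, averaged 688 ± 49.9 TPM in Ad-JP2 and 129 ± 2.44 TPM in Ad-GFP (SD, n = 3 each; TPM, transcripts counted per length and library total). It averaged 119.5 ± 3.09 TPM in libraries labelled Ad-shJP2, which was not called different from Ad-GFP (log2 fold change -0.11, limma adjusted p = 0.0724; 0.00048 with median-of-ratios scaling and 0.042 after correction for GC content and length). Ad-shJP2 is therefore used as the label of the libraries: these data do not show a lower Jph2 message in them, and protein was not measured here, so differences of Ad-shJP2 from Ad-GFP cannot be read as those of lost junctophilin-2. Summed over 10 cardiac fibroblast markers, of which 9 could be tested, TPM was 1372 to 1426 in Ad-JP2, 1056 to 1072 in Ad-shJP2 and 1309 to 1317 in Ad-GFP. Tcf21, Pdgfra and Dcn, which define the cell type, were all present at 29.2 TPM or more, while Fap stayed under 1 TPM. The 9 macrophage and leukocyte markers summed to 2500 to 2542 TPM in Ad-JP2 and 2720 to 2756 TPM in Ad-GFP. In Ad-shJP2 they summed to 3175 to 3224 TPM, so the list as a whole was abundant in all 9 libraries. Lyz2 supplied most of these sums, averaging 1556 TPM in Ad-JP2, 2023 TPM in Ad-shJP2 and 1730 TPM in Ad-GFP. The markers did not move together: 6 of 9 were called higher in Ad-shJP2 than in Ad-GFP and 2 lower. Mrc1 averaged 20.3 TPM in Ad-JP2, 1.97 TPM in Ad-shJP2 and 8.16 TPM in Ad-GFP. Ptprc was also lowest on average in Ad-shJP2, and averaged under 1 TPM there and in Ad-GFP. The 6 endothelial markers, of which 5 could be tested, summed to 35.3 to 40.0 TPM in Ad-JP2, 29.2 to 40.3 TPM in Ad-shJP2 and 37.3 to 38.5 TPM in Ad-GFP. Cardiomyocyte, pericyte, epicardial and Schwann lists each summed to at most 30.2 TPM.

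Of the 44 chains, 23 reached 1 TPM in at least 3 libraries and were tested: 8 fibrillar, 5 network, 3 fibril-associated, 3 beaded and 4 others. None of the 4 transmembrane chains passed. The most abundant collagen message was Col1a1, the α1 chain of type I collagen, which ranked 99th among all genes in Ad-GFP libraries. Col1a2, the second chain of the type I trimer, ranked 116th. The basement membrane chains Col4a1 and Col4a2 ranked 140th and 215th, and the fibril-core chain Col5a2 ranked 144th, ahead of Col3a1, the type III chain, at rank 242. The remaining tested chains spanned 277 TPM in Ad-GFP for Col5a1, the partner of Col5a2, down to 1.65 TPM for Col5a3. The other 21 chains lay between 0 and 0.412 TPM in every library, and 11 of them were listed at 0 in at least 1 library. They included Col17a1 (at most 0.412 TPM), Col11a2 (at most 0.409 TPM) and Col8a2, the second chain of type VIII collagen (at most 0.080 TPM). The glomerular basement membrane chains Col4a3 and Col4a4 reached no more than 0.157 and 0.324 TPM. Libraries of a group lay close together: the median coefficient of variation of the 23 chains was 3.45% in Ad-JP2, 2.10% in Ad-shJP2 and 2.08% in Ad-GFP, against 6.77%, 7.81% and 6.13% over all genes tested. All genes were not matched to the chains for level or length. Single chains varied more, up to 61.3% for Col7a1 in Ad-GFP.

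**Figure D1:**
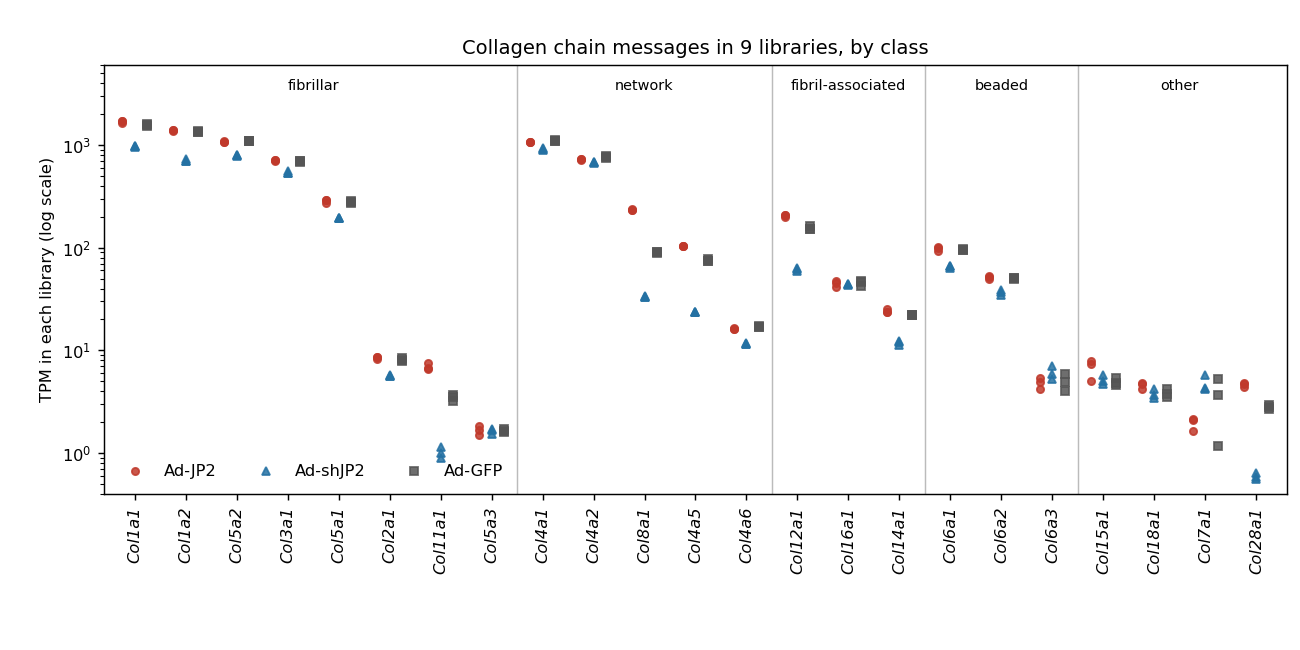
TPM of the 23 tested collagen chains (log axis) in each of 3 Ad-JP2 (circles), 3 Ad-shJP2 (triangles) and 3 Ad-GFP (squares) libraries, grouped by class. Col1a1, Col1a2, Col5a2, Col3a1, Col4a1 and Col4a2 lie highest in all libraries. The Ad-shJP2 symbols stand apart below the other 2 groups for 17 chains, for example Col28a1 at 0.562 to 0.636 TPM. How many of all genes stand apart in this way was not counted. Of all genes 59.4% were called between Ad-shJP2 and Ad-GFP.

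Cells infected with Ad-shJP2 had less collagen message than those infected with Ad-GFP in most of the chains tested. Of the 23 tested chains 17 were lower and 0 higher (limma on log2(TPM + 1), Benjamini-Hochberg adjusted over 14215 genes, threshold 0.05; at an unadjusted p under 0.05 the count of higher chains was also 0). They covered 7 of 8 fibrillar, 5 of 5 network, 2 of 3 fibril-associated and 2 of 3 beaded chains. The comparison was broad: 59.4% of all genes were called, 37.7% lower and 21.8% higher. The median log2 fold change was -0.46 over the chains and -0.11 over all genes. Dividing each library by median-of-ratios size factors, which moved the median of all genes from -0.11 to -0.02, left the same 17 chains called lower. Quantile normalization called 17 lower and 2 higher, namely Col18a1 and Col6a3. Correction for GC content and length called 14 lower and 3 higher, the 3 being Col4a2, Col5a3 and Col6a3. Under that correction the median was -0.24 over the chains and -0.0002 over all genes. The shares of all genes given above are from the fit without it, and those under it were not counted. Without the filter 18 of 44 chains were lower and 1 was higher.

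Cells infected with Ad-JP2 differed from Ad-GFP in few chains. Of the 23 chains 6 were higher, namely Col8a1, Col11a1, Col28a1, Col4a5, Col12a1 and Col1a1, and 0 were lower (at an unadjusted p under 0.05, Col4a1 and Col4a2 were lower). Over all genes 15% were called, 13.4% higher and 1.64% lower. The median log2 fold change was 0.03 over the chains and 0.01 over all genes. With quantile normalization or median-of-ratios scaling 6 were higher and 1 was lower, and after correction for GC content and length 4 were higher and 6 lower. Under that correction the median was -0.07 over the chains and -0.0003 over all genes. The shares of all genes called under it were not counted. Without the filter 5 of 44 chains were higher and 0 lower. The comparisons of Ad-JP2 and of Ad-shJP2 share the Ad-GFP libraries.

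Between Ad-JP2 and Ad-shJP2 cells 17 chains were higher and 1, Col7a1, was lower in Ad-JP2. The split was 12 higher and 6 lower after correction for GC content and length, and 16 higher and 3 lower with quantile normalization. Without the filter 19 of 44 chains were higher and 1 was lower. Col6a3 was called lower in Ad-JP2 under that correction (-0.86), with quantile normalization (-0.66) and with median-of-ratios scaling (-0.38), and Col5a3 under the correction (-0.42) and quantile normalization (-0.34). Over all genes 64.4% were called in that comparison without the correction, 40.3% higher and 24.1% lower. The shares of all genes under it were not counted. A test for any difference among the 3 groups called 17 of the 23 chains, against 63.7% of all genes. The 6 chains it did not call were Col5a3, Col16a1, Col6a3, Col15a1, Col18a1 and Col7a1. Col28a1 was under 1 TPM in every Ad-shJP2 library and Col11a1 in 1 of them (0.902 TPM), and both passed the filter on the strength of the other groups.

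**Figure D2:**
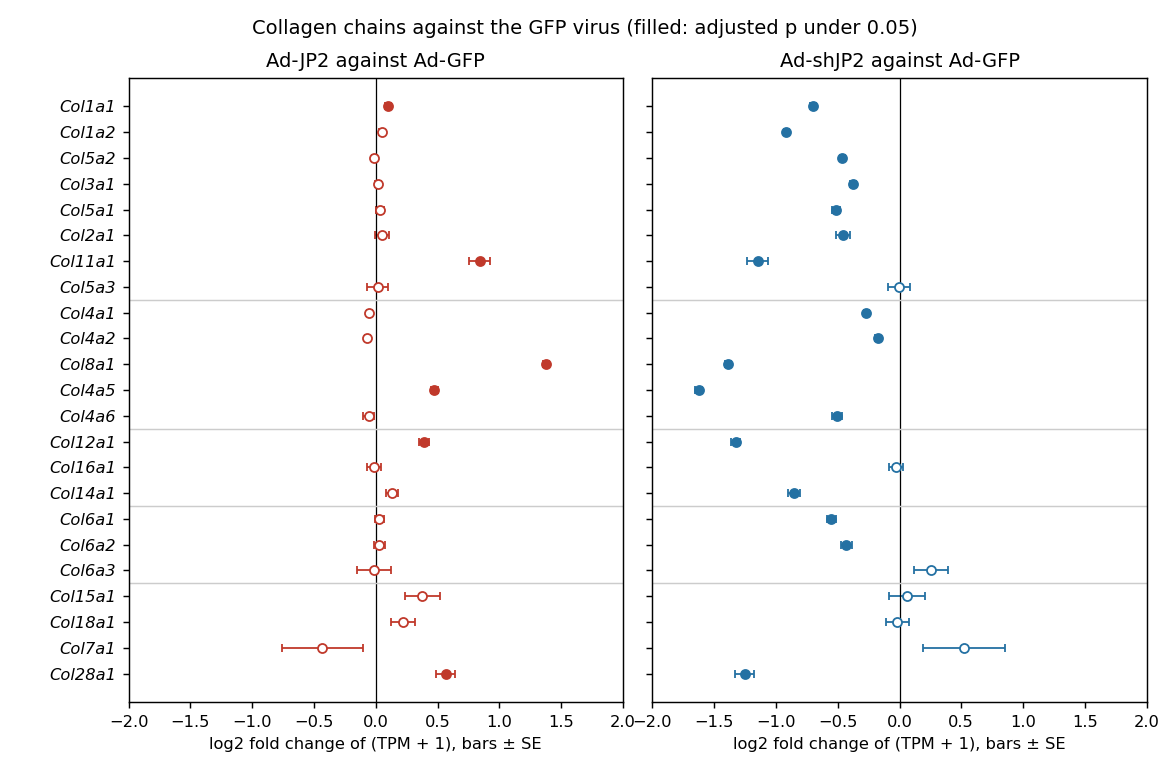
Log2 fold change of (TPM + 1) with its standard error for the 23 tested chains, Ad-JP2 against Ad-GFP on the left and Ad-shJP2 against Ad-GFP on the right; filled symbols passed an adjusted p of 0.05. On the left 6 chains are filled, led by Col8a1 at 1.38, and 17 on the right, led by Col4a5 at -1.63.

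Among the fibrillar chains, the type I pair had the largest differences in TPM between Ad-shJP2 and Ad-GFP. Col1a1 had 970.3, 976 and 947 TPM in Ad-shJP2 libraries, against 1581, 1591 and 1539 TPM in Ad-GFP libraries, and so fell by 38.6% (log2 fold change -0.70 with SE 0.03, limma adjusted p = 4.9e-08). Col1a2 had 705, 728 and 699.7 TPM in Ad-shJP2, against 1353, 1339.6 and 1331 TPM in Ad-GFP (log2 fold change -0.92 with SE 0.02, limma adjusted p = 6.4e-09). Every Ad-shJP2 library lay below every Ad-GFP library for both chains. In Ad-JP2 libraries Col1a1 had 1713, 1703 and 1624 TPM, higher than Ad-GFP by 6.99% (log2 fold change 0.10, SE 0.03, adjusted p = 0.0327). That call was lost when Ad-GFP replicate 1, 2 or 3 or Ad-JP2 replicate 1 or 2 was left out (adjusted p 0.0608 to 0.126), and the difference was -0.07 after correction for GC content and length (adjusted p = 0.0558). Col1a2 had 1409.8, 1397 and 1353 TPM in Ad-JP2, a difference of 0.05 from Ad-GFP that was not called (adjusted p = 0.235), and -0.07 after the correction, where it was called lower (adjusted p = 0.0386).

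Col3a1, whose protein forms the finer, more compliant fibrils, had 555, 534 and 529 TPM in Ad-shJP2 and 689, 706 and 705 TPM in Ad-GFP libraries (log2 fold change -0.38, limma adjusted p = 1.3e-06). The fall was thus smaller in Col3a1 than in the type I chains, and the Col1a1 to Col3a1 ratio was lower in all Ad-shJP2 libraries. Col5a1 and Col5a2, chains of the type V collagen that starts fibrils, fell by 0.51 and 0.46 on the log2 scale in Ad-shJP2. Col5a2 had 795, 786 and 795 TPM in Ad-shJP2, against 1089, 1099 and 1087 TPM in Ad-GFP. In Ad-JP2 it had 1076, 1071 and 1103 TPM, overlapping Ad-GFP. The type V chain Col5a3 averaged 1.68 ± 0.158 TPM in Ad-JP2, 1.64 ± 0.0875 TPM in Ad-shJP2 and 1.65 ± 0.0522 TPM in Ad-GFP (SD, n = 3 each), and all 3 groups overlapped. The cartilage collagen Col2a1 was present at a low level and fell by 0.46 on the log2 scale in Ad-shJP2 (5.67 ± 0.0846 TPM, against 8.15 ± 0.299 TPM in Ad-GFP).

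Col11a1, a chain of type XI collagen, moved in both directions. It had 6.82, 6.64 and 7.57 TPM in Ad-JP2, 1.00, 0.902 and 1.14 TPM in Ad-shJP2, and 3.65, 3.54 and 3.21 TPM in Ad-GFP libraries. The 3 groups did not overlap. The Ad-JP2 mean was 2.02 times the Ad-GFP mean (log2 fold change 0.84 with SE 0.09, limma adjusted p = 2.0e-04), and Col11a1 fell by 70.8% in Ad-shJP2 (log2 fold change -1.15, SE 0.09, adjusted p = 4.2e-06). Log2 values are of TPM + 1, which understates the change of a message this low. Between 105 and 1434 reads lay behind each of its values.

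Network chains differed in how far they moved. Col8a1, the main chain of type VIII collagen in vessel walls, had 234, 232 and 235 TPM in Ad-JP2, 33.9, 33.1 and 33.4 TPM in Ad-shJP2, and 87.9, 90.3 and 89.8 TPM in Ad-GFP libraries. Its Ad-JP2 mean was 2.62 times the Ad-GFP mean (log2 fold change 1.38 with SE 0.03, limma adjusted p = 3.1e-08). In Ad-shJP2 it fell by 62.5% (log2 fold change -1.39, SE 0.03, adjusted p = 1.6e-09), and the Ad-JP2 mean was 6.98 times the Ad-shJP2 mean. Col8a1 had the lowest GC content of the 23 chains, 46.8%. After correction for GC content and length both differences were smaller and still called, 1.13 in Ad-JP2 (adjusted p = 2.3e-07) and -0.89 in Ad-shJP2 (adjusted p = 3.5e-08).

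The 6 type IV chains are encoded as 3 head-to-head gene pairs whose members are read from opposite strands. Of those chains 4 were expressed here, as 2 pairs that differed from each other. The promoter windows of both expressed pairs are shown because the pairs differed in how far their members moved together. Each runs from 250 bases before to 50 after the start listed by RefSeq (GRCm38.p6) and is written 5′ to 3′ on the strand of its gene.

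Col4a1 and Col4a2 lie on mouse chromosome 8, on the minus strand at chr8:11312777-11313076 and on the plus strand at chr8:11312555-11312854. Their starts are 21 bases apart and each lies inside the other transcript, and the windows overlap by 78 bases, which are in capitals in both and are each other's reverse complement.
Col4a1: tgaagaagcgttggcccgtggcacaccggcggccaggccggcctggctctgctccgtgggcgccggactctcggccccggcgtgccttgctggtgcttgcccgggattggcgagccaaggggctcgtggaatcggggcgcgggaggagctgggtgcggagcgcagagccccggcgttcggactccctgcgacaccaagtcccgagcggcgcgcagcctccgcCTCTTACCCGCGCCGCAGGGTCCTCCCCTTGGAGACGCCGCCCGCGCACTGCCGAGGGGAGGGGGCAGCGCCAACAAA
Col4a2: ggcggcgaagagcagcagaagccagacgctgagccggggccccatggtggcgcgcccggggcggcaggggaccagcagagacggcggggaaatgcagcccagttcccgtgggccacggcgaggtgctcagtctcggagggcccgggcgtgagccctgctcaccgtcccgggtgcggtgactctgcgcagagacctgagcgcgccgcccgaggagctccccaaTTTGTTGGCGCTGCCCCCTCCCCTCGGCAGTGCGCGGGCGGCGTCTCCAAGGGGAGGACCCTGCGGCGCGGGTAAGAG

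Col4a6 and Col4a5 lie on the X chromosome, on the minus strand at chrX:141474027-141474326 and on the plus strand at chrX:141475169-141475468. Their starts are 1343 bases apart and the windows do not overlap. Capitals mark GGGCGG (a GC box) and CCAAT on either strand.
Col4a6: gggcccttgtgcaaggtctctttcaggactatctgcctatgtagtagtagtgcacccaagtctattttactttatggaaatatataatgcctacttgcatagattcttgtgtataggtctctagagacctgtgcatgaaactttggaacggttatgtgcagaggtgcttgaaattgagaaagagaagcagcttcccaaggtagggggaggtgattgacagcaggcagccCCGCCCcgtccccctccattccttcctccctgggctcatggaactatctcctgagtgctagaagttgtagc
Col4a5: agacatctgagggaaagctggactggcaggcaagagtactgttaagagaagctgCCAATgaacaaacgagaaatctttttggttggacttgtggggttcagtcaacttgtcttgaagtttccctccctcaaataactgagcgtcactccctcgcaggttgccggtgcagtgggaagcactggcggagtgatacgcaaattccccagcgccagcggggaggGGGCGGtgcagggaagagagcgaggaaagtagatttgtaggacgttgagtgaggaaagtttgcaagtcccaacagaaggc

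Col4a1 and Col4a2, which build the ubiquitous α1α1α2 trimer of basement membranes, differed little between groups. Col4a1 had 926, 892 and 923 TPM in Ad-shJP2, against 1120.3, 1095 and 1086 TPM in Ad-GFP (log2 fold change -0.27, limma adjusted p = 5.4e-06). Col4a2 had 683, 675 and 672 TPM in Ad-shJP2, against 774, 769 and 749 TPM in Ad-GFP (log2 fold change -0.18, adjusted p = 7.8e-05). Neither pair of groups overlapped, but after correction for GC content and length Col4a1 was no longer called (-0.01, adjusted p = 0.709) and Col4a2 was called higher (0.08, adjusted p = 0.0194). In Ad-JP2 both were slightly below Ad-GFP without being called, Col4a1 at 1061 ± 5.14 against 1100.3 ± 17.9 TPM and Col4a2 at 729 ± 9.94 against 764 ± 13.6 TPM (SD, n = 3 each; log2 fold changes -0.05 and -0.07). The correction made those differences -0.22 and -0.25, both called (adjusted p = 0.00123 and 4.0e-04). Between Ad-JP2 and Ad-shJP2, the call of higher in Ad-JP2 turned under the correction to -0.21 for Col4a1 and -0.33 for Col4a2.

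Col4a5 moved further than its neighbour Col4a6, with which it forms a trimer of epithelial and smooth muscle basement membranes. Col4a5 had 104, 104 and 105 TPM in Ad-JP2, 23.4, 23.6 and 23.6 TPM in Ad-shJP2, and 73.6, 76.9 and 73.7 TPM in Ad-GFP libraries. It was higher than Ad-GFP by 39.4% in Ad-JP2 (log2 fold change 0.47 with SE 0.03, limma adjusted p = 1.6e-05) and fell by 68.5% in Ad-shJP2 (-1.63, SE 0.03, adjusted p = 1.6e-09). Col4a6 had 16.2, 16.0 and 16.5 TPM in Ad-JP2, 11.9, 11.4 and 11.6 TPM in Ad-shJP2, and 17.2, 16.7 and 17.0 TPM in Ad-GFP libraries. It fell by 0.51 on the log2 scale in Ad-shJP2 (adjusted p = 9.6e-06) and was not called in Ad-JP2 (-0.06, adjusted p = 0.475). The Col4a5 calls remained after correction for GC content and length, at 0.29 in Ad-JP2 and -1.28 in Ad-shJP2.

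In the fibril-associated class Col12a1, whose protein bridges type I fibrils and is made by tissues under tension, moved most. It had 209, 206 and 199 TPM in Ad-JP2, 62.1, 59.7 and 63.0 TPM in Ad-shJP2, and 164, 153 and 151 TPM in Ad-GFP libraries, with no overlap of the 3 groups. It was higher in Ad-JP2 (log2 fold change 0.39 with SE 0.04, limma adjusted p = 1.7e-04) and fell in Ad-shJP2 (-1.33, SE 0.04, adjusted p = 1.4e-08). The rise in Ad-JP2 shrank to 0.10 after correction for GC content and length and was no longer called (adjusted p = 0.0635), while the fall in Ad-shJP2 was -0.83 (adjusted p = 6.0e-08). Col14a1, a relative of Col12a1 that also coats fibrils, had 12.0, 11.2 and 12.3 TPM in Ad-shJP2, against 22.1, 22.3 and 22.1 TPM in Ad-GFP (log2 fold change -0.85, adjusted p = 6.9e-07). In Ad-JP2 it had 23.9, 25.4 and 23.9 TPM, above all Ad-GFP libraries but not called (0.13, adjusted p = 0.108). Col16a1, which has been described at the surface of thin fibrils, averaged 44.7 ± 2.71 TPM in Ad-JP2, 44.2 ± 0.476 TPM in Ad-shJP2 and 45.1 ± 2.59 TPM in Ad-GFP (SD, n = 3 each), with overlapping groups.

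The beaded filament of type VI collagen is built from the α1, α2 and α3 chains. Col6a1 had 65.8, 65.9 and 63.9 TPM in Ad-shJP2, against 98.1, 94.8 and 95.1 TPM in Ad-GFP (log2 fold change -0.55, limma adjusted p = 1.5e-06). Col6a2 had 38.9, 37.4 and 35.0 TPM in Ad-shJP2, against 50.5, 49.96 and 50.3 TPM in Ad-GFP (-0.43, adjusted p = 4.3e-05). Both fell in Ad-shJP2 and overlapped Ad-GFP in Ad-JP2. Col6a3, the large chain of the trimer, had 0.0515 of the TPM of Col6a1 in Ad-GFP and was not called. It had 5.91, 5.28 and 6.99 TPM in Ad-shJP2, against 4.92, 5.84 and 4.05 TPM in Ad-GFP (0.25, adjusted p = 0.143). After correction for GC content and length it was called higher in Ad-shJP2 (0.58, adjusted p = 0.00563).

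Among the chains outside these classes, Col28a1, a von Willebrand factor A domain collagen known from peripheral nerve, had the pattern of Col11a1. It had 4.83, 4.37 and 4.68 TPM in Ad-JP2, 0.636, 0.562 and 0.584 TPM in Ad-shJP2, and 2.66, 2.80 and 2.95 TPM in Ad-GFP libraries, without overlap. The Ad-JP2 mean was 1.65 times the Ad-GFP mean (log2 fold change 0.57, limma adjusted p = 0.00125), and Col28a1 fell by 78.8% in Ad-shJP2 (-1.25, adjusted p = 1.5e-06), with 39.5 to 527 reads behind the values. Every Ad-shJP2 library lay under the filter of 1 TPM. A chain that low there could be tested only if it was higher in another group, so its fall is not independent of the filter. Of 5 Schwann markers only Cnp could be tested, and it was called higher in Ad-shJP2, where Col28a1 was lower.

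Col7a1, the anchoring fibril collagen of skin, was called lower in Ad-JP2 than in Ad-shJP2. It had 2.09, 1.66 and 2.14 TPM in Ad-JP2, 5.75, 4.34 and 4.19 TPM in Ad-shJP2, and 3.69, 5.25 and 1.16 TPM in Ad-GFP libraries. The Ad-GFP libraries had a coefficient of variation of 61.3% and overlapped both other groups. The call between Ad-JP2 and Ad-shJP2 (log2 fold change -0.95, limma adjusted p = 0.03) was lost when any 1 Ad-JP2 library or Ad-shJP2 replicate 1 or 2 was left out (adjusted p 0.0522 to 0.0907). Without Ad-GFP replicate 3, Col7a1 was called lower in Ad-JP2 than in Ad-GFP (-0.87, adjusted p = 0.0127), and without Ad-GFP replicate 2 it was called higher in Ad-shJP2 (0.84, adjusted p = 0.0403). The multiplexins Col15a1 and Col18a1, basement membrane proteoglycans whose C-terminal fragments include endostatin, were not called in any comparison as first fitted. Col15a1 had 5.04, 7.94 and 7.37 TPM in Ad-JP2, against 4.57, 4.79 and 5.40 TPM in Ad-GFP. Among fits without 1 library it was called higher in Ad-JP2 only without Ad-JP2 replicate 1 (0.55 against Ad-GFP, limma adjusted p = 0.0108, and 0.49 against Ad-shJP2, adjusted p = 0.0037). Col18a1 averaged 4.62 ± 0.331 TPM in Ad-JP2, 3.78 ± 0.423 TPM in Ad-shJP2 and 3.83 ± 0.352 TPM in Ad-GFP. With quantile normalization it was called higher in Ad-shJP2 than in Ad-GFP (0.26, limma adjusted p = 0.0426). It was called higher in Ad-JP2 than in Ad-shJP2 without Ad-JP2 replicate 2 (0.29, adjusted p = 0.0465) or Ad-shJP2 replicate 1 (0.31, adjusted p = 0.0238).

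Summed over all 44 chains, collagen made up 0.775% of all TPM in Ad-JP2, 0.511% in Ad-shJP2 and 0.743% in Ad-GFP. The sums were 7817, 7795 and 7648 TPM in Ad-JP2, 5153, 5100.0 and 5075 TPM in Ad-shJP2, and 7485, 7462 and 7345 TPM in Ad-GFP libraries. No groups overlapped. The difference from Ad-GFP was -31.2% in Ad-shJP2 and 4.34% in Ad-JP2, and each exact permutation test (two-sided) gave p = 0.1, the smallest that 3 against 3 libraries allow. With median-of-ratios scaling the log2 differences were -0.43 in place of -0.54 for Ad-shJP2 and 0.04 in place of 0.06 for Ad-JP2. Fibroblast markers were called lower in Ad-shJP2 than in Ad-GFP for 7 of 9 and higher for 1. Macrophage markers were called higher for 6 of 9 and lower for 2, with the sums given above. Over all genes 37.7% were called lower and 21.8% higher in that comparison. The part of these cell types in the collagen totals was not tested. In bulk RNA fewer cells of a type and less RNA per cell cannot be told apart.

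The shortfall of summed TPM in Ad-shJP2 was unequal among classes. The summed difference from Ad-GFP was -35.8% for fibrillar, -47.3% for fibril-associated, -28.2% for beaded and -18.9% for network chains, each with no overlap and an exact permutation p of 0.1. The chains outside these classes differed by -4.04% and overlapped. Col4a1 and Col4a2 supplied most of the network sum. The median log2 fold change of single chains was -0.51 for network, -0.49 for fibrillar, -0.85 for fibril-associated and -0.43 for beaded chains. Network chains made up 32.5% of collagen TPM in Ad-shJP2, against 27.5% in Ad-GFP, and fibrillar chains 62.8%, against 67.2%. In Ad-JP2 the shares were 27.7% network and 66.6% fibrillar. Fibril-associated chains had 281, 277 and 265 TPM in Ad-JP2, against 233, 218 and 220.3 TPM in Ad-GFP, 22.6% higher, and Col12a1 supplied most of that sum.

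**Figure D3:**
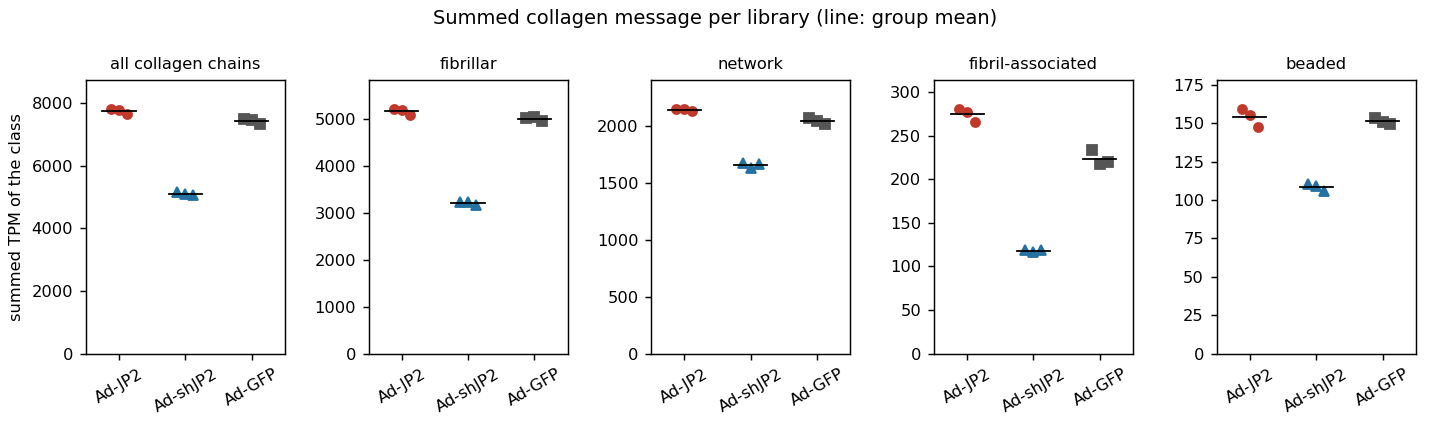
Summed TPM per library of all 44 collagen chains and of 4 classes in 3 Ad-JP2, 3 Ad-shJP2 and 3 Ad-GFP libraries, with lines at the group means and axes from 0. The Ad-shJP2 libraries lie below the others in every panel, at 5075 to 5153 TPM for all chains, and beaded sums of Ad-JP2 and Ad-GFP overlap.

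Ratios of chains that share a trimer or a fibril were formed within each library, which removes any scaling between libraries. Trends with GC content or length are not removed by it. The Col4a5 to Col4a6 ratio was 6.44, 6.47 and 6.32 in Ad-JP2 libraries, 1.97, 2.07 and 2.03 in Ad-shJP2 libraries, and 4.28, 4.60 and 4.35 in Ad-GFP libraries. The Col4a1 to Col4a2 ratio, for the pair whose promoter windows overlap, averaged 1.46 ± 0.0179 in Ad-JP2, 1.35 ± 0.0268 in Ad-shJP2 and 1.44 ± 0.0148 in Ad-GFP (SD, n = 3 each). Its Ad-JP2 and Ad-GFP values overlapped, whereas the Col4a5 to Col4a6 ratio separated all 3 groups. Each of these differences between groups without overlap had an exact permutation p of 0.1.

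The type I trimer takes 2 α1 chains and 1 α2 chain, and the Col1a1 to Col1a2 message ratio was below 2 in every library. It averaged 1.21 ± 0.00979 in Ad-JP2, 1.36 ± 0.0182 in Ad-shJP2 and 1.17 ± 0.0162 in Ad-GFP, and no groups overlapped. After correction for GC content and length, Col1a1 and Col1a2 were both at -0.07 in Ad-JP2 against Ad-GFP. In Ad-shJP2 against Ad-GFP they were then at -0.45 and -0.70. The Col1a1 to Col3a1 ratio was 1.75, 1.83 and 1.79 in Ad-shJP2, against 2.29, 2.26 and 2.18 in Ad-GFP. The Col11a1 to Col5a1 ratio, for chains that can occupy the same place in a fibril core, averaged 0.0247 in Ad-JP2, 0.00523 in Ad-shJP2 and 0.0125 in Ad-GFP, again without overlap. The Col6a3 to Col6a1 ratio was 0.0897, 0.0801 and 0.109 in Ad-shJP2, against 0.0502, 0.0616 and 0.0425 in Ad-GFP. The Col5a1 to Col5a2 ratio moved by at most 7.24% and the Col6a1 to Col6a2 ratio by at most 8.41% in any comparison.

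**Figure D4:**
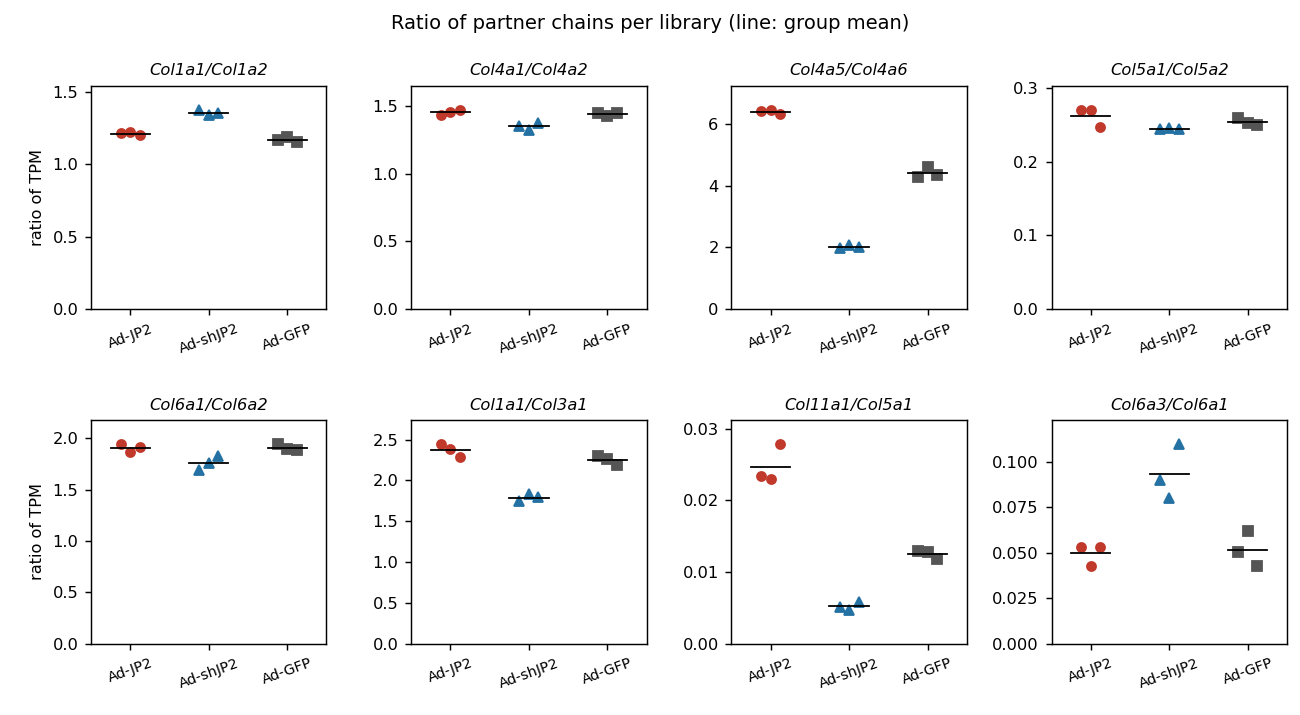
Ratio of TPM of partner chains in each of 3 Ad-JP2, 3 Ad-shJP2 and 3 Ad-GFP libraries, with lines at the group means and axes from 0. The Col4a5 to Col4a6 and Col11a1 to Col5a1 ratios separate all 3 groups, while Col4a1 to Col4a2 stays between 1.32 and 1.47.

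The chains called higher in Ad-JP2 had a lower median GC content than the others. The 6 chains higher in Ad-JP2 and lower in Ad-shJP2 had a median GC content of 49.2%, the 11 that were lower in Ad-shJP2 alone 56.7%, and the 6 called in neither 60.5%. Col1a1, at 58.9%, was the highest of the 6, while Col5a2, at 49.6%, and Col14a1, at 50.7%, were not called in Ad-JP2. Across the 23 chains GC content and log2 fold change had a Spearman rho of -0.52 for Ad-JP2 and 0.69 for Ad-shJP2, each against Ad-GFP. The same values over all genes with a GC content were -0.41 and 0.34, so the relation was not confined to collagens. These correlations are descriptions across genes that share the same 9 libraries. Collagen messages were also long, with a median of 5577 bases against 1985 for all genes tested, and over all genes length and fold change had a rho of 0.41 for Ad-JP2 and -0.27 for Ad-shJP2. Across the 23 chains the rho with length was -0.22 for Ad-JP2 and 0.04 for Ad-shJP2.

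Removing the trends with GC content and length from every library changed which chains were called. In Ad-JP2 Col8a1, Col4a5, Col11a1 (0.53) and Col28a1 (0.44) remained higher than in Ad-GFP. The chains Col1a2, Col4a1, Col4a2, Col4a6, Col5a1 and Col5a2 were then called lower, with log2 differences of -0.07 to -0.26. In Ad-shJP2 14 of the 17 chains remained lower, among them Col1a1 (-0.45), Col1a2 (-0.70), Col3a1 (-0.12) and Col14a1 (-0.52). The exceptions were Col4a1, Col4a2 and Col5a2 (-0.04, adjusted p = 0.333). The part of GC content and of length in the differences was not tested.

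**Figure D5:**
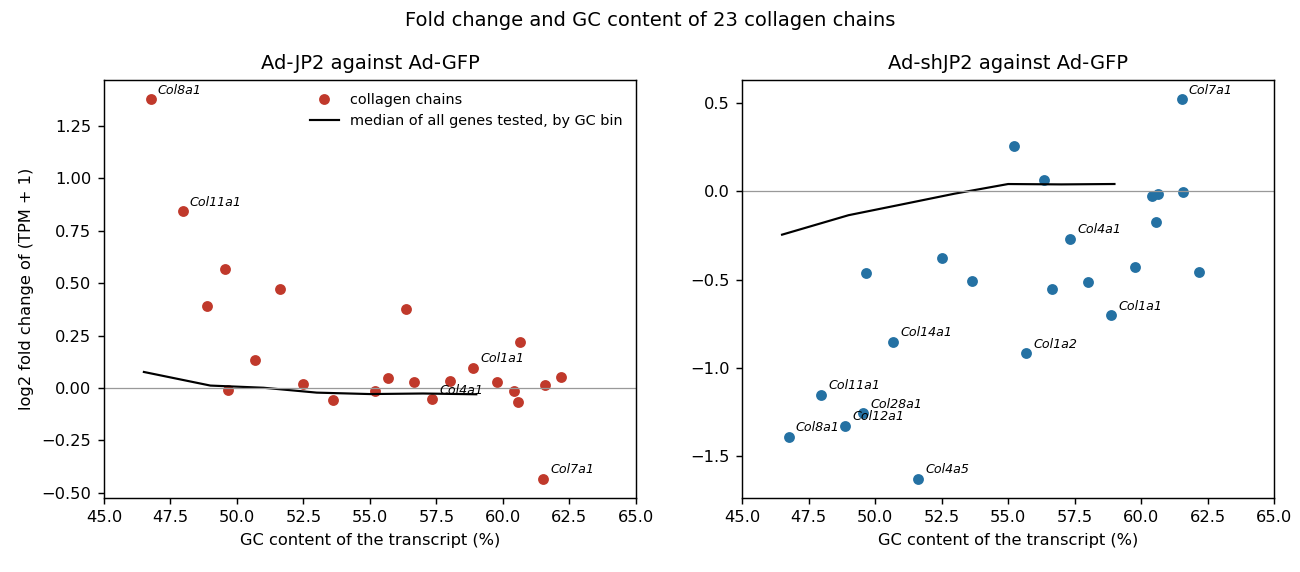
Log2 fold change of (TPM + 1) against the GC content of the transcript (%) for 23 collagen chains, Ad-JP2 against Ad-GFP on the left and Ad-shJP2 against Ad-GFP on the right; the line is the median of all genes tested in bins of GC content. Col8a1, at 46.8% GC, is highest on the left, and the chains below 50% GC lie farther from 0 than the line does, except Col5a2 on the left.

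The genes that make, export and bind collagen were given as a list of 55, of which 48 could be tested. In Ad-shJP2 36 were lower and 2 higher than in Ad-GFP, and in Ad-JP2 10 were higher and 1 lower. Over all genes 37.7% were called lower and 21.8% higher in Ad-shJP2, and 13.4% higher and 1.64% lower in Ad-JP2. With the GC and length correction, 31 of the list were lower and 7 higher in Ad-shJP2, and in Ad-JP2 7 were higher and 6 lower. The shares of all genes under that correction were not counted. Without the correction the list median in Ad-shJP2 was -0.30, between the -0.46 of the chains and the -0.11 of all genes. Of the 10 folding and export genes tested 9 were lower in Ad-shJP2, with Sec23a, a coat protein of the vesicles that carry procollagen out of the endoplasmic reticulum, at 24.5 ± 0.895 TPM in Ad-shJP2 and 76.8 ± 0.874 TPM in Ad-GFP (SD, n = 3 each; log2 fold change -1.61). Mia3, the TANGO1 receptor that loads procollagen into those vesicles, was higher in Ad-JP2 (0.85) and lower in Ad-shJP2 (-0.86). Serpinh1, the collagen chaperone HSP47, averaged 1692 ± 43.6 TPM in Ad-JP2, 1618 ± 7.47 TPM in Ad-shJP2 and 1673 ± 4.80 TPM in Ad-GFP and was called in neither comparison with Ad-GFP.

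The enzymes that modify the chains were mixed. Of 10 genes of proline hydroxylation 7 were lower in Ad-shJP2, led by P4ha1, the catalytic subunit of prolyl 4-hydroxylase (-0.55), and the only member called in Ad-JP2 was the cyclophilin Ppib, which was lower (-0.09). Of 4 genes of lysine modification tested, Plod2, the lysyl hydroxylase of the telopeptides, had 56.3 ± 1.35 TPM in Ad-JP2, 3.65 ± 0.502 TPM in Ad-shJP2 and 19.2 ± 1.25 TPM in Ad-GFP, while Colgalt1, which adds galactose to hydroxylysine, was higher in Ad-shJP2 (0.37). The crosslinking oxidase Lox had 722 ± 40.6 TPM in Ad-JP2, 78.3 ± 1.68 TPM in Ad-shJP2 and 336 ± 4.85 TPM in Ad-GFP, and 4 of 5 crosslinking genes were lower in Ad-shJP2. All 6 collagen receptors tested were lower in Ad-shJP2. Among them Itgb1, the β1 integrin subunit, was at -1.31, and Ddr2, a receptor tyrosine kinase for fibrillar collagen, at -0.56; Itgb1, Ddr2 and Itga1 were higher in Ad-JP2. Bmp1, the procollagen C-proteinase, averaged 102 ± 3.96 TPM in Ad-JP2, 102 ± 1.90 TPM in Ad-shJP2 and 101 ± 2.00 TPM in Ad-GFP.

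Several of the genes just named were of low GC content. Over the whole table genes below 45% GC had a median log2 fold change of 0.27 in Ad-JP2 and -0.44 in Ad-shJP2. GC content was 42.4% for Sec23a, 43.0% for Plod2, 43.9% for Lox, 44.8% for Itgb1 and 45.8% for Mia3. After correction for GC content and length Lox was at 0.74 in Ad-JP2 and -1.47 in Ad-shJP2, Plod2 at 1.16 and -1.56, and Mia3 at 0.67 and -0.47, all called by limma. Sec23a was called lower in both, at -0.21 in Ad-JP2, where it was higher before (0.17), and -1.03 in Ad-shJP2. Itgb1 was still lower in Ad-shJP2 (-0.84) but no longer called in Ad-JP2 (0.06, adjusted p = 0.052), and Itga1 was called in neither. Of the 6 receptors 4 then remained lower in Ad-shJP2, and of the 5 crosslinking genes 3 were lower and 1 higher. Serpinh1 was then called lower (-0.11) and Bmp1 higher (0.10) in Ad-shJP2, and Ppib was no longer called in Ad-JP2.

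The miR-29 family is known for binding the 3′ untranslated regions of many collagen messages, and its sequence is shown because most of the tested chains carry a match to it. The 3 mature forms share their seed, bases 2 to 8, in capitals (RefSeq, GRCm38.p6).
mmu-miR-29a-3p: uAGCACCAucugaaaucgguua
mmu-miR-29b-3p: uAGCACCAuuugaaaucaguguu
mmu-miR-29c-3p: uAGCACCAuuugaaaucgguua

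The reverse complement of the seed, TGGTGCT, was searched on the sense strand of the 3′ untranslated region of the longest coding transcript in GENCODE M21. It was found in 17 of 22 tested chains with such a region (77.3%), against 1762 of 11378 tested genes (15.5%), although the median region was 965 bases in the chains and 1127 bases in all genes. In 6 chains the match occurred more than once, with 4 copies in Col5a1 and 3 each in Col4a5 and Col5a3. The first match of chains with different patterns follows, in capitals.
Col1a1: gtgggaaggaatttcTGGTGCTatag
Col3a1: ttcaaaatgtctcaaTGGTGCTataa
Col8a1: ctgtatattctaccaTGGTGCTaata
Col4a5: cactgctcccaccaaTGGTGCTaata
Col4a1: gccaccgtcacaacaTGGTGCTactc
Col7a1: ctgctgtgctccattTGGTGCTagag

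Against Ad-GFP, chains with the match had log2 fold changes of both signs in each comparison. Those without the match had negative ones in Ad-shJP2 and positive ones in Ad-JP2 (0.03 to 0.57), not all of them called. The 5 without the match were Col1a2, Col12a1, Col14a1, Col6a1 and Col28a1, and no 3′ untranslated region was found for Col18a1. In Ad-shJP2 the median log2 fold change was -0.43 over the 17 chains with a match (from -1.63 to 0.52) and -0.92 over the 5 without (from -1.33 to -0.55). In Ad-JP2 the medians were 0.02 and 0.13. The ranges overlapped, and the difference was not tested. A match is a string of letters and says nothing of binding, and miRNAs were not measured in these polyA libraries.

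Promoter windows were listed for 18 of the 23 tested chains. GGGCGG, searched on both strands, occurred in 13 of them, against 35.9% of 27025 promoters of the same length. Those 27025 promoters were not limited to tested genes, so the shares are not matched for expression. CCAAT occurred in 9 of 18, against 37.9%, and TATAAA in 1, that of Col3a1, against 14.2%. In the windows shown above, Col4a2 has 3 copies of GGGCGG and 1 of CCAAT, and Col4a1 has 1 of each; 1 GGGCGG lies in the stretch that both windows share. Col4a5 has 1 of each and Col4a6 1 of GGGCGG alone.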

How the data were processed

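The deposited table holds TPM per gene for 9 libraries, computed by the authors. Per the submitters' processing notes, DRAGEN, Salmon, DESeq2 and the build GRCm39 were used; what each did, and in which version, is not given in the sources used here. Genes with at least 1 TPM in at least 3 libraries, 14215 in all, were fitted with limma 3.58.1 in R 4.3.3 on log2(TPM + 1), with 1 mean per group over the 9 libraries and a mean-variance trend. P-values were two-sided and Benjamini-Hochberg adjusted over all genes tested. Sums and ratios of TPM used exact permutation tests. Depth was recovered from steps of low TPM times the deposited effective length (39.9% to 95.7% of low values lay within 0.1 of a whole read), so it is approximate and covers counting error only. GC content came from the GENCODE M21 (GRCm38) transcript closest to the deposited gene length, for 98.7% of genes tested; sequences came from RefSeq tables of GRCm38.p6 and GENCODE M21, matched by symbol or gene identifier, and no coordinates of the authors' build were used. The GC and length correction removed from each library a lowess fit (span 0.3) of its deviations. The fit was tested on simulated data. All 23 tested chains are named, as are the partner ratios of a written list; the Col8a1 to Col8a2 ratio was not formed because Col8a2 was near 0. The members and lists were chosen with earlier results of these data known.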

Additional observations from a re-analysis of the deposited data

How the results depend on the processing

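The count of chains called moved by more than 1.5 times under 1 alternative: after correction for GC content and length it was 10 in Ad-JP2 against Ad-GFP (4 higher and 6 lower), in place of 6. In Ad-JP2 against Ad-shJP2 the correction gave 12 higher and 6 lower, and 11 and 6 with the replicate block added, in place of 17 and 1. Median-of-ratios scaling gave total collagen differences of 0.042 for Ad-JP2, -0.43 for Ad-shJP2 (both against Ad-GFP) and 0.47 for Ad-JP2 against Ad-shJP2, in place of 0.06, -0.54 and 0.60. The same replicate number did not pair libraries: the correlation of deviations was -0.11 to 0.11 for same-numbered and -0.20 to 0.16 for other libraries, and 1 of 9 libraries correlated best with its own number. With the replicate block 6, 17 and 20 chains were called in Ad-JP2 against Ad-GFP, Ad-shJP2 against Ad-GFP and Ad-JP2 against Ad-shJP2 (Col15a1 and Col18a1 added in the last), and 1929, 8226 and 9009 of all genes in place of 2135, 8446 and 9152. Among single chains, settings other than leaving out a library kept direction and call in 653 values, lost the call in 14, gained one in 20 and changed sign in 57; leaving out libraries gave 590, 10, 6 and 15. With the GC and length correction, alone or with the replicate block, the sign changed in Ad-JP2 against Ad-GFP for Col1a1 at -0.073, Col1a2 at -0.075, Col3a1 at -0.10, Col5a1 at -0.12, Col2a1 at -0.080, Col5a3 at -0.17, Col14a1 at -0.011, Col6a1 at -0.048 and Col6a2 at -0.050 (log2 fold changes). In the same fits, the sign in Ad-shJP2 against Ad-GFP changed for Col5a3 at 0.26, Col4a2 at 0.084, Col16a1 at 0.043 and Col18a1 at 0.14. In the same fits, the sign in Ad-JP2 against Ad-shJP2 changed for Col5a2 at -0.20, Col5a3 at -0.42, Col4a1 at -0.21, Col4a2 at -0.33, Col4a6 at -0.058, Col16a1 at -0.10 and Col18a1 at -0.021. With quantile normalization it changed in Ad-JP2 against Ad-GFP for Col5a2 at 0.035, Col2a1 at -0.082, Col5a3 at -0.12 and Col6a2 at -0.0055 (log2 fold changes). With that normalization, the sign in Ad-shJP2 against Ad-GFP changed for Col5a3 at 0.22, Col16a1 at 0.020 and Col18a1 at 0.26. With that normalization, the sign in Ad-JP2 against Ad-shJP2 changed for Col5a3 at -0.34, Col16a1 at -0.081, Col15a1 at -0.079 and Col18a1 at -0.20. With median-of-ratios scaling it changed in Ad-shJP2 against Ad-GFP for Col5a3 at 0.067, Col16a1 at 0.082 and Col18a1 at 0.073 (log2 fold changes). With that scaling, the sign in Ad-JP2 against Ad-shJP2 changed for Col5a3 at -0.064, Col4a2 at -0.027 and Col16a1 at -0.12. Leaving out 1 library at a time changed the sign, in Ad-JP2 against Ad-GFP, for Col5a3 (-0.026 to 0.059), Col16a1 (-0.063 to 0.033) and Col6a3 (-0.13 to 0.092), none of them called. It did so in Ad-shJP2 against Ad-GFP, for Col5a3 (-0.023 to 0.022), Col15a1 (-0.0078 to 0.12) and Col18a1 (-0.088 to 0.038). It did so in Ad-JP2 against Ad-shJP2, for Col5a3 (-0.021 to 0.064) and Col16a1 (-0.021 to 0.063). The cause of these changes was not tested. Of the sign changes, Col1a1 in Ad-JP2 against Ad-GFP, Col4a2 in Ad-shJP2 against Ad-GFP, and Col4a1, Col4a2, Col4a6 and Col5a2 in Ad-JP2 against Ad-shJP2 concerned chains that had been called. TPM are shares of a library, so absolute amounts per cell are not given by any setting. The filter of 1 TPM left out the 21 untested chains, which had at most 0.412 TPM. Depth limits those with few reads, such as Col9a1 with at most 0.683 estimated reads in a library. Others had more, such as Col27a1 with 24.7 to 45.7. Depth also limits the lowest tested chains. Among tested chains the fewest estimated reads in a library were 39.5 for Col28a1 and 105 for Col11a1.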
